A study of Mus musculus with 108 samples.

Results

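The effect of a heterozygous Cul3 mutation on the embryonic cerebellum (CB) was followed in 12 of the 108 libraries of the study, chosen by their sample titles as 6 wild-type (WT) and 6 Cul3+/- cerebella at E17.5, late in gestation. Each library was made from the cerebellum of 1 mouse. The same 12 mice also gave cortex (CX) and hippocampus (HIP), and a separate 12 mice gave CB at postnatal day 7 (P7), and these libraries were used only to show where E17.5 CB differed. The mutant mice carry a germline 1 bp insertion in exon 6 of Cul3, made by CRISPR/Cas9 genome editing, descend from 1 founder crossed with WT mice, and have the mutation in every cell and not only in the cerebellum. The labels spell the strain of both genotypes C56Bl/6N, and they name no further allele, no treatment and no sex. Genotypes are called WT and mutant below.

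Cul3 is the scaffold of a RING E3 ubiquitin ligase. It holds the RING protein Rbx1 at one end and a BTB-domain adaptor at the other, and the adaptor picks the protein that is ubiquitinated. Known adaptors include Keap1, which targets the antioxidant transcription factor Nrf2, and Kctd13, which targets the small GTPase RhoA. Late in gestation the mouse cerebellum holds a proliferating outer layer of granule cell precursors that express Atoh1 and Barhl1, progenitors and glial precursors near the ventricle, young Purkinje cells and interneurons, and a vessel network with its own endothelial and mural cells, all under the meninges.

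The guide RNA target is shown because it is the sequence that was edited. It lies in exon 6 of Cul3 on the minus strand at chr1:80287041-80287063 (GRCm38). It was read from the study's table of predicted guide sites, and it was found in GENCODE M21 transcripts of Cul3 and of no other gene. The capitals mark the PAM, the bases that Cas9 needs beside its target.

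Cul3 guide target: ggattaatgaggaaatagagCGG

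The tissue was checked by regional marker genes before the genotypes were compared. On the CPM scale (counts scaled to library size), Atoh1 had a median of 27 CPM in CB and 0 in CX, and Barhl1 had 67.2 CPM in CB and 0 in CX. The forebrain factor Emx1 had a median of 0.0291 CPM in CB, 29.7 CPM in CX and 47.1 CPM in HIP. The cerebellar libraries thus carried the granule precursor genes and nearly no Emx1. Total counts per library ran from 28138816 to 36655043. The mouse names in the titles begin with S2, S3 or S4, whose meaning the labels do not give, and each prefix holds 2 WT and 2 mutant mice. The first principal component of log2 CPM (28.4% of the variance) was positive in all 4 S3 libraries (15.4 to 37.9) and negative in all 4 S4 libraries (−24.6 to −18.7), so differences of mean log2 CPM within S2, S3 and S4 are given, in this order, beside the main results. Xist, the transcript of the inactive X chromosome, was at 367 CPM or more in 4 WT and 3 mutant libraries and at 3.05 CPM or less in the other 5.

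Cul3, the mutated gene, was measured in WT cerebella at 202 CPM at the lowest, 215 CPM at the median and 223 CPM at the highest. In mutant cerebella it ran from 113 CPM over a median of 123 CPM to 137 CPM. No mutant library came near the lowest WT library, and the mutant mean was 57.9% of the WT mean. The WT mean was 214 ± 7.28 CPM and the mutant mean 124 ± 7.73 CPM (SD, n = 6 each). On the log2 scale Cul3 fell by 0.79 (SE 0.046), with an adjusted p of 2.72e-06 by edgeR's quasi-likelihood test. An exact 2-sided permutation test over the 12 libraries, with 924 arrangements, gave p = 0.00216, the smallest p that 6 against 6 allows. Within the prefixes the differences were −0.76, −0.76 and −0.84.

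Cul3 was the only gene called at a false discovery rate of 0.1, 1 of 17621 genes tested or 0.00568%. DESeq2 called 2 of 17613 genes (0.0114%), Cul3 and Nefl. Before adjustment, p was under 0.05 for 292 genes that lay higher (1.66% of those tested) and 325 that lay lower in mutant mice (1.84%). Both directions together made 3.50%, below the share that this threshold gives with no genotype effect. All other genes named below had an adjusted p of at least 0.988 by edgeR, so their values are a description. The 6 mutant libraries lay wholly above the 6 WT libraries for 9 genes (0.0511% of those tested) and wholly below them for 18 genes (0.102%). By order alone, 1 of the 924 arrangements of 6 against 6 puts every mutant below every WT library, and 1 puts them above. Neither share was larger than 1 in 924, so lack of overlap does not by itself set a gene apart. Log2 fold changes below are mutant over WT, given ± SE of the fit to 6 mice a genotype, and the all-gene median was 0.00.

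Nefl, the light chain of the neurofilaments that fill axons, stood closest to Cul3. Its gene spans chr14:68083863-68089095 (GRCm38, plus strand), inside the annotated span of Nefm on the other strand. The library kit kept strand, and whether the counting used it is not given in the sources used here. It ran from 782 to 879 CPM (median 836) in WT and from 612 to 733 CPM (median 698) in mutant mice. The genotypes did not overlap, and the mutant mean was 82.5% of the WT mean. The log2 fold change was −0.28 ± 0.055 (adjusted p = 0.988 by edgeR). DESeq2 gave −0.28 and an adjusted p of 0.00103, past the threshold that edgeR's test did not reach. Within the prefixes the differences were −0.20, −0.37 and −0.27, and with any 1 library left out the fold change stayed between −0.30 and −0.24.

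The other 4 genes of the neurofilament class did not separate the genotypes. Nefm, the medium chain, ran from 219 to 241 CPM (median 232) in WT and from 153 to 283 CPM (median 233) in mutant mice (−0.08 ± 0.13). Both S3 mutants, at 162 and 153 CPM, lay below every WT library, while 3 mutants lay above every WT library. Ina, alpha-internexin, ran from 320 to 446 CPM (median 375) in WT and from 305 to 413 CPM (median 372) in mutant mice (−0.08 ± 0.096), with wide overlap. Nefh, the heavy chain that appears late in axon maturation, ran from 6.59 to 22.6 CPM (median 11.4) in WT and from 6.69 to 14.5 CPM (median 8.74) in mutant mice (−0.47 ± 0.27), and all its mutant values lay within the WT range. Over the 5 genes the median log2 fold change was −0.08, and 1 of the 5, Nefl, had an unadjusted p under 0.05. These are RNA values. For protein the paper reports the other direction, with Ina and Vim higher in mutant mice in all its datasets, embryonic cerebellum included. It also reports higher Nefl and Nefm protein in embryonic cortex.

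Prph, peripherin, is the neurofilament partner of neurons with axons outside the brain. It was at 13.03 CPM or more in WT mice 1 and 3 and mutant mice 3 and 4, and at 5.08 CPM or less in the other 8 mice (0.21 ± 0.70). Dbh, which makes noradrenaline, was at 8.86 CPM or more in the same 4 mice and at 2.05 CPM or less in the rest. The summed level of the 12 noradrenergic markers ran from 71.5 to 173 CPM in WT and from 67.7 to 208 CPM in mutant mice, and none of the 12 was at 0 in every library. These 4 mice are 2 of each genotype. For Nefl the 6 lowest libraries were the 6 mutants, and mutants 3 and 4 were the lowest of these, at 612 and 663 CPM. WT 1 and 3, at 833 and 864 CPM, lay within the range of the other WT mice. Whether Nefl is linked to this split was not tested.

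**Figure D1:**
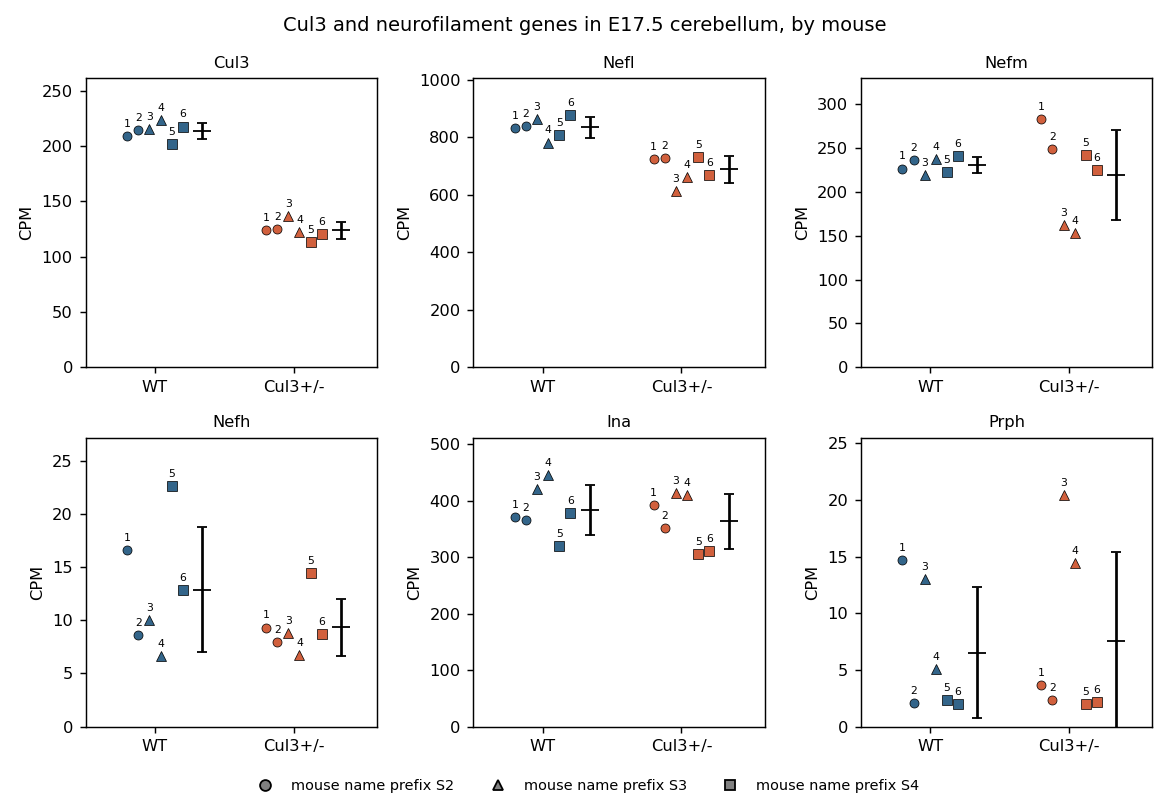
Cul3 and the 5 neurofilament genes in CPM in each of the 12 E17.5 cerebella, numbered by replicate, with the shape giving the prefix of the mouse name and the bar the mean ± SD of each genotype (n = 6). Cul3 and Nefl show no overlap between genotypes, Nefm is lowest in the S3 mutants, and Prph is high in 2 mice of each genotype.

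Further axonal and synaptic genes are given by class, and none passed after adjustment. Of 21 axon cytoskeleton genes tested, 1 lay lower at an unadjusted p under 0.05 and none higher (background 1.84% and 1.66%), with a median log2 fold change of −0.02. That gene was Uchl1, a ubiquitin hydrolase abundant in neurons, which ran from 360.5 to 444 CPM in WT and from 345 to 382 CPM in mutant mice (−0.17 ± 0.053), with 2 mutants below every WT mouse. Tuba1a, the main alpha-tubulin of growing neurons, was at −0.03 ± 0.069. Of 32 synapse and ion channel genes, 24 had a fold change below 0 (median −0.07) and 2 lay lower at p under 0.05. Syn1, synapsin I, was among them (−0.24 ± 0.11). With any 1 library left out, 0 to 4 of the 32 lay lower at p under 0.05. In these fits 1.03% to 3.18% of all tested genes lay lower. With the mouse name prefix as a block, 7 of the 32 lay lower and 1 higher, where 4.16% of all tested genes lay lower and 3.89% higher in that fit.

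Most nuclear-encoded genes of the respiratory chain had small fold changes below 0, while most genes of the mitochondrial genome did not. Of 78 nuclear genes of complexes I to V, 71 had a fold change below 0, where 48.9% of all tested genes did. Their median log2 fold change was −0.06, and 5 lay lower and 0 higher at an unadjusted p under 0.05 (background 1.84% and 1.66%). That count of lower genes was 2 without WT 2, WT 5, WT 6 or mutant 4 and 3 without mutant 1 or mutant 6. It was 8 without WT 1, 11 without WT 4 and 10 with the prefix as a block. Of all tested genes, 1.97% lay lower without WT 1, 3.18% without WT 4 and 4.16% with the block. Without WT 2, WT 5, WT 6, mutant 1, mutant 4 or mutant 6 this share was 1.03% to 1.57%. By complex, the fold change was below 0 for 31 of 36 genes of complex I (NADH dehydrogenase), for 12 of 13 of complexes II and III, for all 13 of complex IV (cytochrome c oxidase) and for 15 of 16 of complex V (ATP synthase). Their medians were −0.05, −0.08, −0.07 and −0.06. Genes of one pathway can move together between libraries, so these genes are not independent observations.

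Cox5a, a nuclear subunit of complex IV, had the clearest separation. It ran from 78.6 to 95.5 CPM (median 86.3) in WT and from 66.9 to 76.9 CPM (median 73.5) in mutant mice. The genotypes did not overlap, and the log2 fold change was −0.23 ± 0.052, with differences of −0.13, −0.27 and −0.30 within the prefixes. Cox8a, another complex IV subunit, ran from 146 to 189 CPM in WT and from 131 to 167 CPM in mutant mice (−0.21 ± 0.082), and Cox5b from 94.5 to 118 CPM in WT and from 91.1 to 102 CPM in mutant mice (−0.14 ± 0.058). In both the genotypes overlapped. Uqcrfs1, the Rieske iron-sulfur protein of complex III, ran from 86.3 to 106 CPM in WT and from 83.4 to 88.1 CPM in mutant mice (−0.16 ± 0.051), with 4 mutants below every WT mouse. Ndufb2 of complex I was at −0.15 ± 0.063. These 5 were the genes with p under 0.05. In complex V the beta subunit Atp5b ran from 854 to 1069 CPM in WT and from 811 to 946 CPM in mutant mice (−0.11 ± 0.060).

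The level of the class, the mean log2 CPM of its 78 genes, overlapped between genotypes. It ran from 6.08 to 6.34 in WT and from 6.08 to 6.23 in mutant mice, and WT 4 was as low as the lowest mutant. Within the prefixes the difference was −0.04 (S2), −0.02 (S3) and −0.10 (S4). Of 26 genes of the mitochondrial ribosome and its translation, 22 were below 0 (median −0.06), and Mrps22 (−0.15 ± 0.048) and Mrpl16 (−0.14 ± 0.066) lay lower at p under 0.05. Of 22 genes of mitochondrial biogenesis and import, 13 were below 0 (median −0.02) and none had a p under 0.05.

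The 13 protein genes of the mitochondrial genome had a median log2 fold change of 0.02, with 11 above 0 and none with a p under 0.05. mt-Co1, a catalytic subunit of complex IV, ran from 4038 to 4923 CPM in WT and from 3311 to 5222 CPM in mutant mice (0.02 ± 0.097). mt-Cytb of complex III was at 0.04 ± 0.12, mt-Co2 at 0.06 ± 0.15 and mt-Co3 at 0.03 ± 0.097. The subunits of complex I were at 0.02 ± 0.13 (mt-Nd1), 0.03 ± 0.16 (mt-Nd2), 0.14 ± 0.23 (mt-Nd3), 0.00 ± 0.12 (mt-Nd4), 0.48 ± 0.35 (mt-Nd4l), −0.03 ± 0.12 (mt-Nd5) and 0.00 ± 0.15 (mt-Nd6). Those of complex V were at −0.13 ± 0.18 (mt-Atp6) and 0.00 ± 0.11 (mt-Atp8). No member passed the test. The class was lowest in mutant 3, at a mean log2 CPM of 6.56 against 7.14 to 7.23 in the other mutants and 6.80 to 7.30 in WT mice.

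Gene length moved slightly with genotype. The median log2 fold change was −0.01 over the quintile of shortest genes and 0.04 over the quintile of longest genes. Per library, the log2 CPM of the longest minus the shortest quintile, relative to the mean of the 12 libraries, ran from −0.10 to 0.06 in WT and from −0.07 to 0.13 in mutant mice. Respiratory chain genes are short, with a median exon length of 1778.5 bases against 4000 over all tested genes. With the length trend of each library removed, 1.69% of all tested genes lay lower and 1.52% higher at p under 0.05, and the 78 genes had a median of −0.04 with 5 lower. Transcripts of the annotation class TEC, unspliced regions awaiting experimental support, had a median log2 fold change of 0.25 over 1091 genes, and sense-intronic transcripts 0.22 over 108 genes. They made up 78 and 11 of the 292 genes that lay higher at p under 0.05. Their joint share of counts ran from 0.147% to 0.265% in WT and from 0.196% to 0.260% in mutant mice. The part of unspliced RNA in the other results was not tested.

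**Figure D2:**
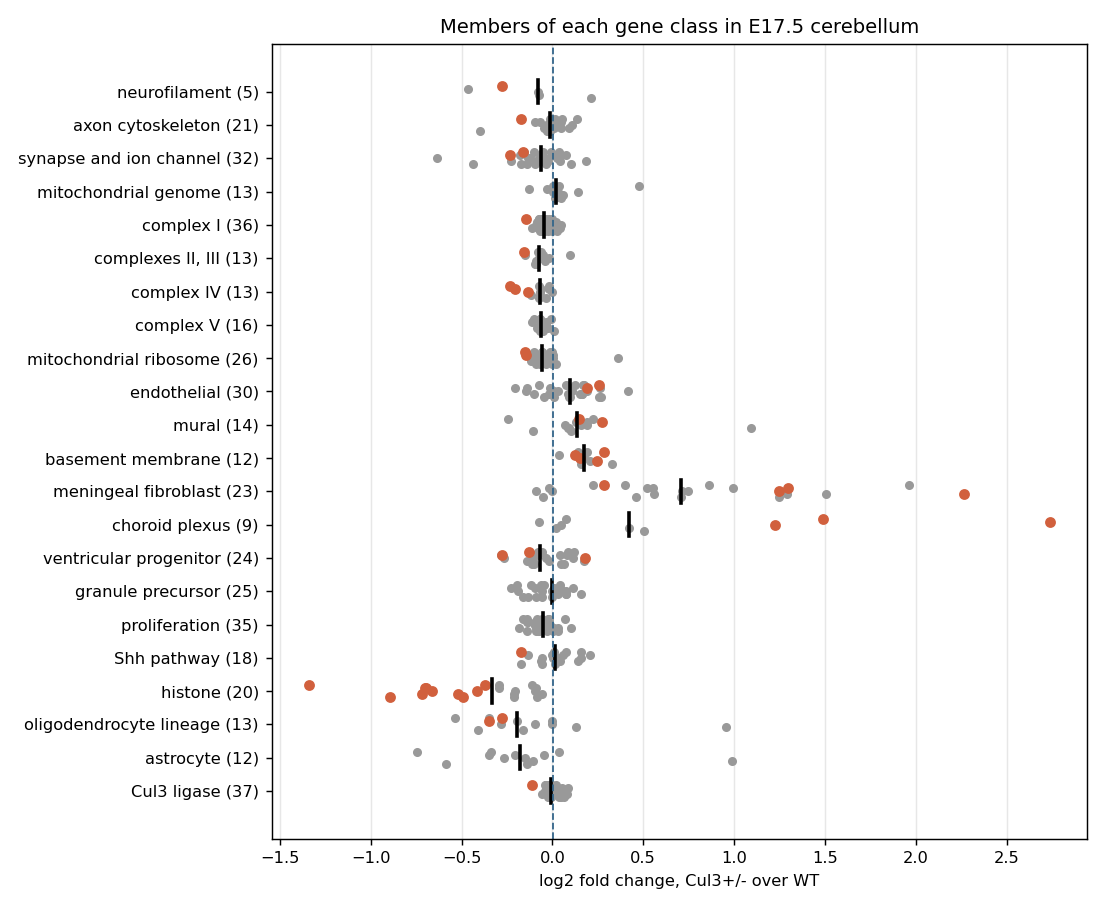
Log2 fold change of mutant over WT cerebellum for each tested member of 22 gene classes, with the number tested in brackets, the class median as a black bar, members with an unadjusted p under 0.05 as large orange points and the median of all genes as a dashed line. Respiratory chain classes sit just left of the line, vascular and meningeal classes to the right, and histone genes well to the left.

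Most vascular genes had fold changes above 0. Of the 56 endothelial, mural and basement membrane genes tested (58 listed), 46 had a fold change above 0, where 51.1% of all tested genes did. At an unadjusted p under 0.05, 8 lay higher and 0 lower (background 1.66% and 1.84%), and the median log2 fold change was 0.14. Their median exon length was 4745 bases. With the length trend removed, 6 lay higher and 0 lower (1.52% and 1.69% of all tested genes in that fit), with a median of 0.13. The count of higher genes was 4 without WT 5, mutant 4 or mutant 5, 5 without WT 2 or WT 6 and 15 without mutant 6. It was 12 with the prefix as a block. Of all tested genes, 2.23% lay higher without mutant 6 and 3.89% with the block. Without WT 2, WT 5, WT 6, mutant 4 or mutant 5 this share was 1.07% to 1.94%. Within the prefixes the level of the 56 genes differed by −0.03 (S2), 0.20 (S3) and 0.17 (S4). For endothelial genes these differences were −0.02, 0.17 and 0.10 and for mural genes −0.14, 0.25 and 0.25, so S2 went the other way. In bulk tissue, more cells of a type and more RNA per cell cannot be told apart.

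Kdr, the main VEGF receptor of endothelial cells, ran from 44.6 to 53.4 CPM (median 48.8) in WT and from 51.5 to 67.6 CPM (median 57.7) in mutant mice. 4 of the 6 mutants lay above every WT mouse, and the log2 fold change was 0.26 ± 0.067, with differences of 0.10, 0.40 and 0.26 within the prefixes. Nos3, endothelial nitric oxide synthase, was at 0.19 ± 0.086. Of 30 endothelial genes 22 were above 0 (median 0.10), and Kdr and Nos3 were the 2 with a p under 0.05. The abundant glucose transporter gene Slc2a1 was at 0.10 ± 0.084. Of 14 mural genes 12 were above 0 (median 0.14), and Abcc9, a potassium channel subunit of pericytes (0.14 ± 0.061), and Pdgfrb, their PDGF receptor (0.27 ± 0.12), had a p under 0.05. Rgs5, the abundant pericyte gene, was at 0.07 ± 0.090.

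All 12 basement membrane genes were above 0 (median 0.17), and 4 lay higher at p under 0.05. They are long, with a median exon length of 7868 bases, and with the length trend removed 3 lay higher (median 0.15). Hspg2, perlecan, ran from 24.8 to 39.6 CPM (median 30.7) in WT and from 31.8 to 43.5 CPM (median 38.3) in mutant mice (0.28 ± 0.098). Lamb2, a laminin beta chain, ran from 41.2 to 47.1 CPM (median 46.1) in WT and from 46.97 to 53.1 CPM (median 48.5) in mutant mice (0.13 ± 0.047). 5 mutants for Lamb2 but only 1 for Hspg2 lay above every WT mouse. Lamc1, a laminin gamma chain, was at 0.15 ± 0.063 and Col4a2, a chain of type IV collagen, at 0.25 ± 0.11. Within the prefixes the class level differed by 0.08 (S2), 0.20 (S3) and 0.24 (S4). Of 20 genes of angiogenic signalling 13 were above 0 (median 0.06) and none had a p under 0.05. Dll4, the Notch ligand of tip cells, was at 0.31 ± 0.17 and the growth factor Vegfc at −0.20 ± 0.13.

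Mutant 5 stood apart in these classes. It had an endothelial level of 3.68 (mean log2 CPM) against 3.10 to 3.24 in the other mutants and 2.98 to 3.32 in WT mice. Its mural level was 3.03 against 2.22 to 2.43 in the other mutants and 2.12 to 2.66 in WT mice. Col3a1, a fibrillar collagen of meningeal fibroblasts, was at 229.6 CPM in mutant 5, 13 to 26.5 CPM in the other mutants and 6.81 to 60.1 CPM in WT mice. The summed CPM of the 24 meningeal fibroblast markers, none at 0 in every library and 5 below 1 CPM on average, was 756 in mutant 5, 181 to 262 in the other mutants and 158 to 356 in WT mice. Its microglia and macrophage level was 2.06 against 1.3 to 1.56 in the other mutants and 1.25 to 1.66 in WT mice. Vascular, meningeal and macrophage markers were thus all high in this mouse.

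Leaving out mutant 5 moved the medians. They went from 0.10 to 0.01 for endothelial, from 0.14 to 0.02 for mural, from 0.17 to 0.11 for basement membrane and from 0.71 to 0.05 for meningeal genes. Without mutants 2 and 5, the 56 vascular genes had a median of 0.05, with 4 higher and 1 lower at p under 0.05, where 2.70% of all tested genes lay higher and 2.35% lower in that fit, and the meningeal markers had a median of −0.05. Kdr stayed between 0.21 and 0.29 with any 1 library left out. The part of meningeal tissue in the remaining vascular values was not tested.

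Among the 23 meningeal markers tested, 19 were above 0 and 4 lay higher at p under 0.05 with all libraries. This count was 1 without WT 2, WT 3, WT 4 or mutant 5, 7 without mutant 6 and 10 without WT 1. Of all tested genes, 1.66% lay higher with all libraries, 4.57% without WT 4, 2.23% without mutant 6 and 2.59% without WT 1. Without WT 2, WT 3 or mutant 5 this share was 1.23% to 1.94%. The 4 were Fbn1, fibrillin (0.28 ± 0.10), Ogn, osteoglycin (1.3 ± 0.52), the transporter gene Slc13a4 (1.25 ± 0.53) and Lum, lumican (2.27 ± 1.04). Lum was at 10.6 CPM in mutant 5 and at 1.21 CPM or less in the other 11 mice. Choroid plexus genes rested on single libraries too. Ttr, transthyretin, the protein secreted by this tissue, was at 276 CPM in mutant 2, between 45.7 and 47.5 CPM in mutants 1 and 5 and WT 5, and at 3.23 CPM or less in the other 8 mice. Of 9 choroid plexus genes tested, 3 lay higher at p under 0.05, namely Clic6 (1.49 ± 0.60), Ttr (2.74 ± 1.23) and the water channel gene Aqp1 (1.23 ± 0.56). The median over these genes was 0.42 with all libraries and 0.10 without mutant 2.

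**Figure D3:**
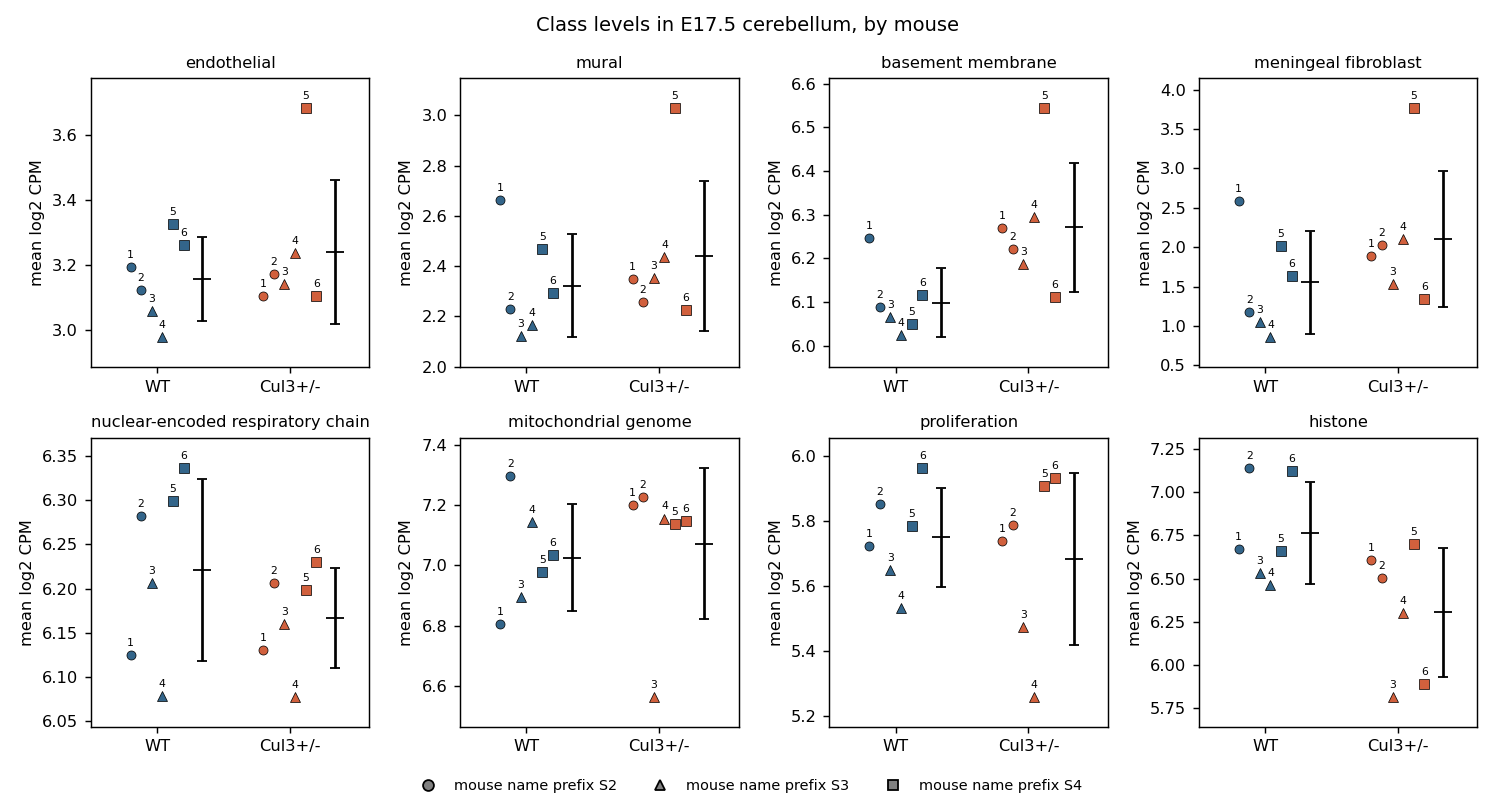
Mean log2 CPM of the members of 8 gene classes in each of the 12 E17.5 cerebella, numbered by replicate, with the shape giving the mouse name prefix and the bar the mean ± SD (n = 6); the y axes do not start at 0. Mutant 5 is the highest in the endothelial, mural, basement membrane and meningeal classes, mutant 3 the lowest for the mitochondrial genome, and both S3 mutants are the lowest for proliferation.

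Progenitor genes had fold changes of both signs. Of 24 genes of ventricular zone progenitors, 9 were above 0 (median −0.07). At an unadjusted p under 0.05, 2 lay lower and 1 higher (background 1.84% and 1.66%). With the prefix as a block, 5 lay lower and 2 higher (4.16% and 3.89% of all tested genes in that fit). Hes5, a Notch target that holds cells in the progenitor state, ran from 53.03 to 60.2 CPM (median 56.8) in WT and from 49.4 to 54.2 CPM (median 51.2) in mutant mice (−0.13 ± 0.041), with 5 mutants below every WT mouse. Olig2, a factor of ventricular and oligodendrocyte precursors, ran from 19.4 to 26.9 CPM (median 22.2) in WT and from 15.9 to 22.5 CPM (median 18.6) in mutant mice (−0.28 ± 0.099), with 3 mutants below every WT mouse. Notch1, a receptor upstream of Hes5, was at 0.18 ± 0.072. Notch2, its relative, was among the 12 higher genes with the smallest p, running from 67.2 to 78.6 CPM (median 74.7) in WT and from 77.8 to 86.8 CPM (median 82.2) in mutant mice (0.15 ± 0.046), with 4 mutants above every WT mouse. Vim, the intermediate filament of radial glia, was at −0.11 ± 0.061 and Nes, nestin, at −0.02 ± 0.072.

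Of 25 granule precursor genes 11 were above 0, the median was 0.00 and none had a p under 0.05. Atoh1, which specifies granule cell precursors, ran from 24.8 to 35.4 CPM (median 28.8) in WT and from 19.4 to 32.2 CPM (median 26.7) in mutant mice (−0.19 ± 0.11), with wide overlap. The differences within the prefixes were −0.06, −0.37 and −0.17, and those of Barhl1, its target in the same cells, were −0.11, −0.49 and −0.16 (−0.23 ± 0.17). With the prefix as a block, 6 of the 25 genes lay lower and 0 higher at p under 0.05, where 4.16% of all tested genes lay lower and 3.89% higher in that fit. Of 35 proliferation genes 6 were above 0 (median −0.05) and none had a p under 0.05. Mki67, the cycling cell marker, was at 0.10 ± 0.092 and the topoisomerase gene Top2a at −0.03 ± 0.12. Of 18 genes of the Shh pathway, the mitogen signal of granule precursors, 11 were above 0 (median 0.01), and Gas1, a Shh co-receptor, was the one with a p under 0.05 (−0.18 ± 0.068).

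Oligodendrocyte and astrocyte markers lay lower without passing the test. Of 13 oligodendrocyte lineage genes 2 were above 0 (median −0.19), and Olig2 and Mag, a myelin adhesion protein gene (−0.35 ± 0.15), had a p under 0.05. Of 12 astrocyte genes 2 were above 0 (median −0.18) and none had a p under 0.05. With the prefix as a block, 5 of the 13 and 7 of the 12 lay lower at p under 0.05. In that fit 4.16% of all tested genes lay lower, against 1.84% without the block. With any 1 library left out, 1 to 3 of the 13 and 0 to 1 of the 12 lay lower, where 1.03% to 3.18% of all tested genes did. Of 24 Purkinje cell genes 16 were above 0 (median 0.04) and none had a p under 0.05.

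Among the gene classes drawn above, histone genes lay farthest below WT levels. Their mRNAs end in a stem-loop and, for the replication-dependent genes listed here, mostly lack a poly(A) tail, and the libraries were made from ribosome-depleted total RNA. All 20 tested were below 0 (median −0.33), and 10 lay lower at p under 0.05, where 1.84% of all tested genes did. The 10 became 4 without WT 2, 5 without WT 6 and 6 without mutant 3. They ran up to 13 without WT 4 and were 15 with the prefix as a block. Of all tested genes, 3.18% lay lower without WT 4 and 4.16% with the block. Without WT 2, WT 6 or mutant 3 this share was 1.03% to 1.87%. The stem-loops are shown because histone mRNAs of this kind end in one. Their place within each transcript was not checked. Runs of 16 bases whose first and last 6 bases pair around a loop that starts with TTT were read on the sense strand of the GENCODE M21 transcripts of these genes. They came in 3 forms, in 11, 2 and 1 genes. The letters that the forms share, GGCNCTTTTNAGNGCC, were then searched on the sense strand of all tested genes' transcripts. They were found in 14 of the 20 histone genes (70%), a share fixed in advance because the letters were taken from these genes. Hist1h2ai, described below, was without them. They were also found in 0.201% of the 14397 other protein-coding genes tested, a set not cleared of histone genes outside the list. The capitals mark the stem.

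Hist1h2ad stem-loop: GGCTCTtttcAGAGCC
Hist1h3c stem-loop: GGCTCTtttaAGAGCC
Hist1h4c stem-loop: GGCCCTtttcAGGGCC

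The largest differences were in H2A genes. Hist1h2ad ran from 48.5 to 87.1 CPM (median 58.1) in WT and from 21.3 to 55.9 CPM (median 40.7) in mutant mice (−0.70 ± 0.23), with 4 mutants below every WT mouse. Hist1h2ai ran from 18.2 to 45.99 CPM (median 25.1) in WT and from 2.62 to 20.7 CPM (median 12.7) in mutant mice (−1.34 ± 0.44), with 4 mutants below every WT mouse. Hist1h4c, an H4 gene with the third stem-loop shown, was at −0.09 ± 0.085, and the linker histone gene Hist1h1e at −0.21 ± 0.14. Histone genes are near-identical copies between which reads are divided by estimate, so single values are uncertain and the genes are not independent. The class level differed by −0.35 (S2), −0.44 (S3) and −0.59 (S4) within the prefixes. Mutants 3 and 6 were lowest, at 5.82 and 5.89, and the other mutants (6.30 to 6.70) overlapped with WT mice (6.46 to 7.14). With any 1 library left out the median stayed between −0.40 and −0.27.

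The listed transcripts of the mutated gene's pathway stayed near WT levels. Ube2m, a gene of this pathway outside the list, is given in the next paragraph. Protein was not measured in these libraries, and the paper reports higher RhoA protein in embryonic cortex and cerebellum of mutant mice. Of 37 genes of the Cul3 ligase and its relatives, Cul3 left out, 14 were above 0 and the median was −0.01. Klhl12, a BTB adaptor of Cul3, was the one with a p under 0.05. It ran from 52.1 to 58.5 CPM in WT and from 47.4 to 53.6 CPM in mutant mice (−0.11 ± 0.046), with overlap. Rbx1 was at −0.02 ± 0.044, Keap1 at −0.01 ± 0.040, Kctd13 at −0.04 ± 0.052, Rhoa at −0.02 ± 0.053 and the cullin exchange factor gene Cand1 at 0.01 ± 0.043. Of 15 Nrf2 target genes 6 were above 0 (median −0.03), and Srxn1, sulfiredoxin (−0.15 ± 0.061), was the one with a p under 0.05.

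The remaining genes with the smallest p below WT levels follow, and none passed after adjustment by edgeR. Ube2m, the enzyme that attaches Nedd8 to cullins, ran from 76.9 to 85.2 CPM (median 81.6) in WT and from 72.3 to 75.5 CPM (median 73.9) in mutant mice without overlap (−0.13 ± 0.035). Nedd8 itself was at −0.02 ± 0.056. The exoribonuclease gene Trir ran from 58.8 to 69.5 CPM (median 65.1) in WT and from 48.9 to 58.01 CPM (median 56.7) in mutant mice, also without overlap (−0.22 ± 0.051). Fam120aos, a noncoding gene, did not overlap either, running from 3.45 to 4.65 CPM (median 3.86) in WT and from 2.42 to 3.33 CPM (median 3.06) in mutant mice (−0.40 ± 0.10). Fbxl15, an F-box protein gene of another cullin ligase, was at −0.35 ± 0.094 and Ube2ql1, of the ubiquitin-conjugating enzyme family, at −0.32 ± 0.088. Cdk5r2, a neuronal activator of the kinase Cdk5, was at −0.18 ± 0.053, Ttc9b at −0.24 ± 0.061, Tmem158 at −0.23 ± 0.065, Lrp11 at −0.20 ± 0.058 and Mgat2, an enzyme of N-glycan synthesis, at −0.17 ± 0.049.

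The remaining genes with the smallest p above WT levels were of mixed kinds, and none passed after adjustment by edgeR. Utrn, utrophin, which links actin to the membrane, ran from 68.3 to 75.3 CPM (median 71.9) in WT and from 75.2 to 86.3 CPM (median 80.99) in mutant mice (0.18 ± 0.041), with 5 mutants above every WT mouse. With the length trend removed it was at 0.10, and Myh9, non-muscle myosin IIA, went from 0.17 ± 0.051 to 0.12. Ddr2, a collagen receptor, was at 0.39 ± 0.11, the adhesion receptor gene Icam1 at 0.56 ± 0.16 and Pkd1, polycystin 1, at 0.19 ± 0.061. Lpp was at 0.25 ± 0.078, the RNA-binding protein gene Rbm24 at 0.29 ± 0.084, Parp4 at 0.58 ± 0.17 and the pseudogene Rpl36a-ps2 at 0.30 ± 0.093. 1700047I17Rik2, a multicopy gene, ran from 0 to 5.96 CPM (median 2.57) in WT and from 5.76 to 38.9 CPM (median 16.8) in mutant mice, with 5 mutants above every WT mouse.

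**Figure D4:**
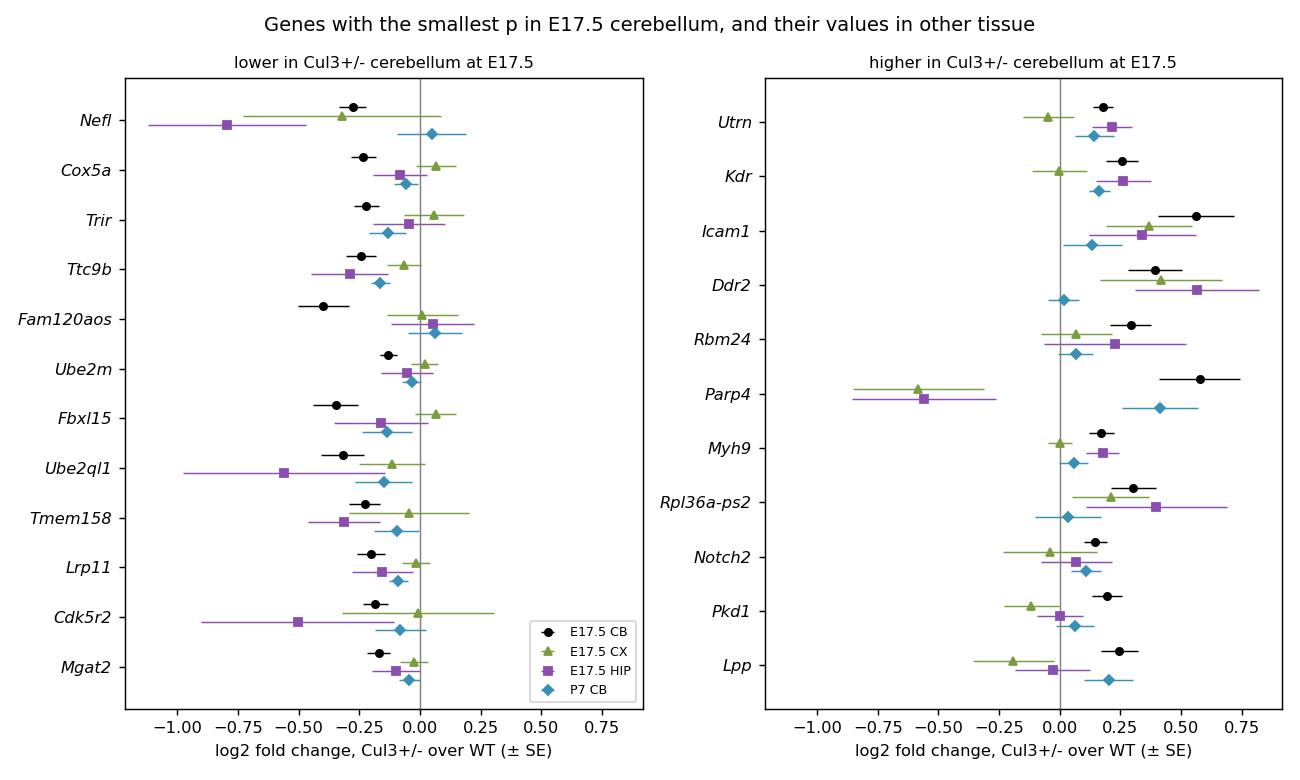
Log2 fold change of mutant over WT mice (± SE) for the 12 genes with the smallest p below WT and 11 of the 12 above WT in E17.5 CB, with the same genes in E17.5 CX, E17.5 HIP and P7 CB (1700047I17Rik2 is left out). Values in E17.5 CB chose these genes, so only the other 3 tissues are independent of that choice, and of these only P7 CB comes from other mice.

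The genotype effect in CB was compared with the mean effect in CX and HIP of the same mice, and edgeR's quasi-likelihood test of the difference called 0 of 18637 genes (0%), as did DESeq2. Without adjustment p was under 0.05 for 254 genes with a more positive effect in CB (1.36%) and 189 with a more negative one (1.01%). The difference from P7 CB gave 0 of 18673 genes (0%), with 110 genes at p under 0.05 with a more positive effect at E17.5 (0.589%) and 278 with a more negative one (1.49%). DESeq2 called 2 genes, Gm25890 and Rpl15-ps3, which edgeR's test did not call. Nefl had a log2 fold change of −0.32 ± 0.41 in CX, −0.79 ± 0.32 in HIP and 0.05 ± 0.14 in P7 CB. Its effect in CB minus that in the other regions was 0.21 ± 0.32, and its effect at E17.5 minus P7 −0.32 ± 0.16. Its level was lower in the other regions, with a median of 117 CPM in CX and 11.6 CPM in HIP against 729 CPM in CB.

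Cox5a was at 0.07 ± 0.082 in CX, −0.08 ± 0.11 in HIP and −0.06 ± 0.049 in P7 CB. Its effect in CB minus that in the other regions was −0.24 ± 0.11, with an unadjusted p under 0.05 that did not hold after adjustment. Parp4, higher in CB, was at −0.58 ± 0.27 in CX and −0.56 ± 0.30 in HIP, and its difference was 1.07 ± 0.33, again not called. Kdr was at 0.00 ± 0.11 in CX, 0.26 ± 0.11 in HIP and 0.16 ± 0.044 in P7 CB.

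Class medians across tissues are set side by side as a description. The 78 respiratory chain genes had a median log2 fold change of −0.06 in E17.5 CB and −0.06 in P7 CB, but 0.05 in CX and 0.04 in HIP at E17.5. At p under 0.05, 1 of them lay lower in P7 CB (background 1.11%, and 3.78% higher), 0 in CX (1.08% lower, 0.585% higher) and 0 in HIP (0.979% lower, 1.31% higher). Histone genes were at −0.33 in E17.5 CB, −0.24 in P7 CB, 0.27 in CX and 0.26 in HIP. Proliferation genes were at −0.05, −0.06, 0.17 and 0.20 in the same order. Basement membrane genes were at 0.17, 0.11, 0.01 and 0.16. In the test of the difference between CB and the other regions, 3 respiratory chain genes, all of complex IV, and 1 histone gene had a more negative effect in CB at p under 0.05, and none passed after adjustment.

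**Figure D5:**
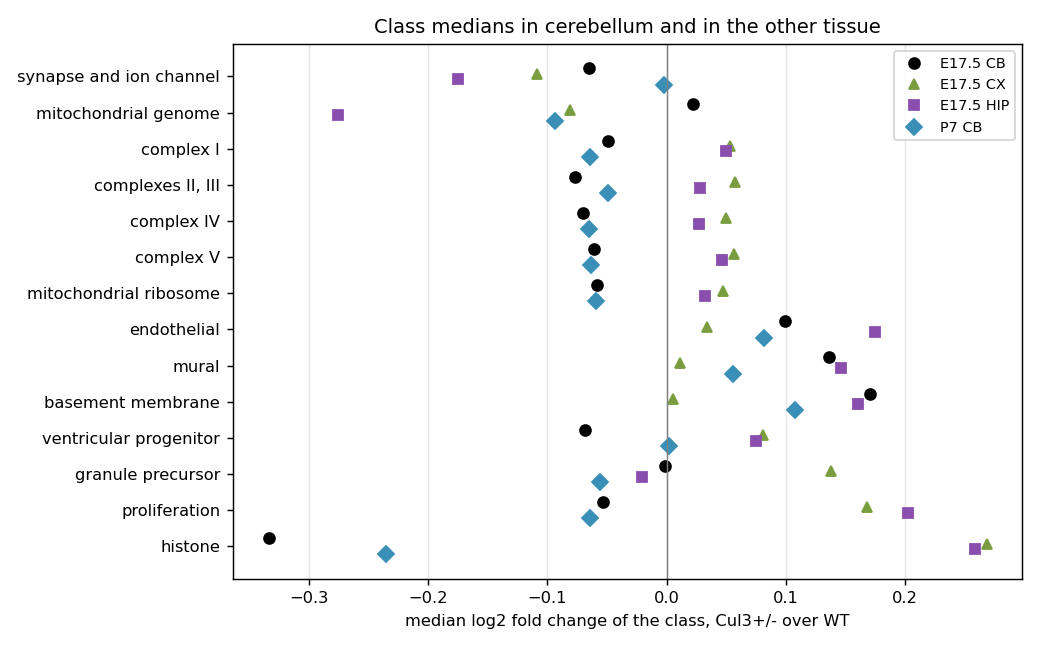
Median log2 fold change of mutant over WT mice for gene classes in E17.5 CB, E17.5 CX, E17.5 HIP and P7 CB; the E17.5 tissues come from the same 12 mice and the P7 mice are others. The nuclear respiratory chain, mitochondrial ribosome, proliferation and histone classes lie below 0 in CB at both ages and above 0 in CX and HIP. The mitochondrial genome does not share that order.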

How the data were processed

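Cerebella of 6 WT and 6 Cul3+/- mice at E17.5 were profiled by stranded, ribosome-depleted total RNA-seq. The authors trimmed reads with cutadapt 1.14, aligned them with STAR 2.5.3a to GRCm38.p5 with GENCODE vM16, and estimated counts per gene with RSEM 1.3. The deposited table holds these expected counts, not normalized, for 108 libraries, and 0 of its columns belonged to another series. Groups came from sample titles, and replicates were separate mice, so p-values measure the spread between mice. Symbols and coordinates came from GENCODE M21 (GRCm38).

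Counts were rounded, genes with few counts were removed (edgeR filterByExpr, minimum count 10, minimum total 15), and libraries were scaled by TMM. Genotypes were compared with 2-sided quasi-likelihood tests in edgeR 4.0.16 (R 4.3.3) with Benjamini-Hochberg adjustment at 0.1. Differences between regions were tested with the mouse as a block, and those between ages as an interaction of age and genotype. CPM values were TMM-scaled, and log2 CPM had a prior count of 2. DESeq2 1.42.0, upper-quartile scaling, no filter, the likelihood ratio test, blocks by replicate number or name prefix, an Xist covariate, RUVs, all 36 E17.5 libraries, and each library left out were alternatives. Removal of the length trend and omission of mutants 2 and 5 were added after the data were seen. All 37 gene lists, and the choice of tissue, were made with earlier results of these data known. Named genes were Cul3, the 12 higher and 12 lower genes with the smallest p at a mean of at least 1 CPM, all neurofilament and mitochondrial genome genes, and in each other list the 2 with the smallest p and the 2 most abundant. Other members that make up a small count, and Dbh, Rbx1, Keap1, Kctd13, Rhoa, Nedd8, Notch1 and Hist1h4c, were named after their values were seen. Some genes are not reported here. The fits were tested on simulated counts with known changes. At a false discovery rate of 0.1 the main fit recovered 18% of log2 changes of 0.25 and 70% of those of 0.5. The test between regions recovered 4% and 34%, and that between ages 2% and 52%. Changes of the size described in this report can thus be missed. Replicates differed by more than sampling noise.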

Additional observations from a re-analysis of the deposited data

Results flagged for a closer look

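In 410 groups of 6 mice, 33 values stood farther from the others of their genotype than Dixon's critical gap for 6 samples. By chance about 1 in 20 groups does so. Class levels are means of log2 CPM. Mutant 1 was highest of its genotype in this way for Purkinje cell genes at 6.46. Mutant 1 was lowest of its genotype in this way for Tomm40 at 41.4 CPM. Mutant 2 was highest of its genotype in this way for Hoxb3 at 1.75 CPM, Clic6 at 7.43 CPM and Ttr at 276 CPM. Mutant 3 was highest of its genotype in this way for Rpl36a-ps2 at 7.56 CPM, Slc17a6 at 123 CPM, Slc5a7 at 9.45 CPM and Txnrd1 at 194 CPM. Mutant 3 was lowest of its genotype in this way for mt-Nd6 at 5.67 CPM, mt-Atp8 at 44.1 CPM and the mitochondrial genome class at 6.56. Mutant 4 was highest of its genotype in this way for Tal2 at 3.83 CPM. Mutant 4 was lowest of its genotype in this way for Atp5b at 811 CPM and complexes II and III at 6.21. Mutant 5 was highest of its genotype in this way for Fbxl15 at 11.7 CPM, Nefh at 14.5 CPM, Col3a1 at 229.6 CPM, F13a1 at 11.3 CPM, Csf1r at 15.5 CPM, endothelial genes at 3.68, mural genes at 3.03, meningeal fibroblast genes at 3.76, microglia and macrophage genes at 2.06 and the 56 vascular genes at 4.13. Mutant 6 was highest of its genotype in this way for Gm25890 at 20.3 CPM. Mutant 6 was lowest of its genotype in this way for Trir at 48.9 CPM. WT 1 was highest of its genotype in this way for F13a1 at 3.26 CPM. WT 2 was lowest of its genotype in this way for ependymal genes at 1.70. WT 4 was lowest of its genotype in this way for Tomm40 at 40.9 CPM. WT 5 was highest of its genotype in this way for Hoxd3 at 5.59 CPM, Slc6a5 at 15.4 CPM and Ttr at 45.7 CPM.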

How the results depend on the processing

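Cul3 was called under every alternative, with log2 fold changes from −0.81 to −0.76 when 1 library was left out. The count of called genes was 1 in each alternative except DESeq2 (2), RUVs, a fit with factors of unwanted variation, with 3 factors (11) and RUVs with 5 factors (62). With 3 factors these were Cul3, Nefl, Kdr, Cox5a, Utrn, Ube2ql1, Dcn, Chchd10, Lrp2, CT010467.1 and Gm15666. The 62 genes with 5 factors included histone genes, all lower, such as Hist1h2ai (−1.57) and Hist1h2ad (−0.66). Both RUVs fits tested 17621 genes by the likelihood ratio test, with factors estimated with the genotype known. Genes that lay higher at an unadjusted p under 0.05, 292 with the settings of the report, were 590 without the low-count filter, 686 with the mouse name prefix as a block, 491 and 559 with RUVs of 3 and 5 factors, 484 without mutants 2 and 5 and 146 with all 36 E17.5 libraries in 1 fit. Genes that lay lower, 325 in the report, were 733 with the prefix block and 101 in the fit of 36 libraries. With any 1 library left out the higher genes ranged from 191 (without WT 6) to 812 (without WT 4) and the lower ones from 183 to 565. Counts moved by over 1.5 times also without WT 1 (460 higher), mutant 3 (512 higher) and WT 5 (210 lower).

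The same-numbered mice did not deviate together in every pair, with correlations of −0.02, 0.24, 0.43, 0.38, 0.35 and 0.15, so the numbers were not taken as pairs. The replicate block gave 801 higher and 831 lower genes at p under 0.05 and still 1 called gene.

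The difference between regions and that between ages gave 0 called genes under all alternatives, except DESeq2, which called 2 for the ages. When 1 library was left out the class medians ranged from −0.24 to −0.06 for neurofilament, −0.02 to 0.12 for the mitochondrial genome, −0.08 to −0.03 for the nuclear respiratory chain and the mitochondrial ribosome, 0.01 to 0.15 for endothelial, 0.02 to 0.16 for mural, 0.11 to 0.21 for basement membrane, −0.09 to −0.01 for ventricular zone, −0.07 to 0.03 for granule precursor, −0.10 to 0.02 for proliferation and −0.40 to −0.27 for histone genes. The neurofilament median was lowest without mutant 3. The causes were not tested. Cul3 kept its sign under all alternatives. Of 11 class medians, 4 changed sign under some alternative, those of the mitochondrial genome, granule precursor, proliferation and, only without mutants 2 and 5, endothelial genes. Of the 166 named genes 37 changed sign under some alternative, Nefm and Prph among them, and none of the 37 had an unadjusted p under 0.05 in the report. Of the named genes' values under alternatives, 3933 stayed as reported, 18 passed the threshold that the report's fit did not, and 33 moved by more than the spread. Depth of 28138816 to 36655043 counts limits the genes under 1 CPM most.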

Other observations

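Marker lists of further cell types and neighbouring tissue are given here by the number of listed genes tested and their log2 fold changes. Of the brain regions beside the cerebellum, the fit held 10 of 19 brainstem genes (median −0.35, 3 above 0, 0 higher and 2 lower at p under 0.05), 7 of 11 midbrain genes (median 0.20, 4 above 0, 0 higher and 0 lower at p under 0.05) and 5 of 12 forebrain genes (median −0.02, 1 above 0, 0 higher and 0 lower at p under 0.05). The brainstem genes with p under 0.05 were Hoxb3 (−2.20 ± 0.89) and Hoxd3 (−1.98 ± 0.87), which pattern the hindbrain. Hoxd3 was at 5.59 CPM in WT 5 and at 1.66 CPM or less in the other 11 mice. The summed CPM of the 19 brainstem markers ran from 23.9 to 62.7 in WT and from 24.7 to 42.6 in mutant mice. There were 11 of 12 noradrenergic genes (median −0.09, 5 above 0, 0 higher and 1 lower at p under 0.05), the one being Gal, galanin (−0.54 ± 0.22).

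Among cerebellar neurons there were 12 of 12 glutamatergic cerebellar nuclei genes (median −0.03, 5 above 0, 0 higher and 0 lower at p under 0.05) and 10 of 10 inhibitory interneuron genes (median 0.03, 6 above 0, 0 higher and 0 lower at p under 0.05). The remaining lists were 5 of 8 other intermediate filament genes (median −0.02, 2 above 0, 0 higher and 0 lower at p under 0.05), 10 of 12 ependymal genes (median 0.00, 5 above 0, 0 higher and 0 lower at p under 0.05), 7 of 11 erythroid genes (median 0.17, 6 above 0, 0 higher and 0 lower at p under 0.05), 15 of 18 microglia and macrophage genes (median −0.04, 6 above 0, 0 higher and 0 lower at p under 0.05) and 13 of 16 immediate early and stress genes (median −0.01, 6 above 0, 0 higher and 1 lower at p under 0.05). The stress gene was Hspa1a, a heat shock protein gene (−0.35 ± 0.14). The erythroid level (mean log2 CPM) overlapped between genotypes, from 4.11 to 5.81 in WT and from 4.70 to 5.75 in mutant mice.

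Of the 27 genes whose genotypes did not overlap, 9 lay higher in mutant mice, and 4 of these were TEC transcripts under 1 CPM. The best measured of the 9 was Ogg1, a DNA glycosylase that removes oxidized guanine, at 4.37 to 5.84 CPM in WT and 5.85 to 6.47 CPM in mutant mice (0.20 ± 0.081). Among the 18 lower ones were Serpini1, neuroserpin, at 287 to 325 CPM in WT and 253 to 286 CPM in mutant mice (−0.13 ± 0.045), and Rbl2, a relative of the retinoblastoma protein, at 41.3 to 47.1 CPM in WT and 38.6 to 41.2 CPM in mutant mice (−0.12 ± 0.040). These were picked after their values were seen.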
